A study of Homo sapiens with 12 samples.

Results

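The genes described here encode the tissue factor pathway of coagulation, 2 protease-activated receptors (PARs) and the activators of plasminogen with their cell-surface receptor. They are 9 of the 58288 genes listed, chosen by symbol: F3, TFPI, TFPI2, THBD, F2R, F2RL1, PLAU, PLAUR and PLAT. Of these, 8 had at least 1 TPM (transcripts per 1000000, a level scaled to gene length and to the library total) in at least 3 of the 12 libraries and were tested. TFPI did not.

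Tissue factor, the product of F3, is the membrane protein that binds factor VII and starts clotting. TFPI is its main inhibitor, while thrombomodulin (THBD) turns thrombin towards activation of protein C. Thrombin cuts and thereby activates PAR1, encoded by F2R, whereas PAR2 (F2RL1) is cut by trypsin-like proteases, among them the complex of tissue factor with factor VIIa. Urokinase (PLAU) and tissue plasminogen activator (PLAT) cut plasminogen to plasmin, and uPAR (PLAUR) holds urokinase at the cell surface. Squamous carcinomas are known for abundant tissue factor and urokinase.

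RNA was sequenced from FaDu cells, an established human head and neck squamous cell carcinoma (HNSCC) line, to ask how STING, an adaptor of the innate response to cytosolic DNA, shapes transcription with and without radiation. STING WT cells carried a non-targeting guide RNA and STING KO cells a guide RNA against STING, and lentivirus delivered the Cas9 system to both. No other guide RNA was used in these libraries, so STING loss cannot be told apart from other differences between the cell types. Each was left unirradiated (0Gy) or given 4 daily treatments of 2 Gy (RT), with 3 libraries in each of the 4 groups. The time of collection after the last treatment and whether the KO cells were a clone or a pool are not given in the sources used here. Nor do they say whether the libraries came from separate cultures, so that p-values measure the spread between libraries, which may be technical.

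TMEM173, the gene of STING, was lower in all KO libraries, at 5.18 to 6.96 TPM without radiation and 6.35 to 7.41 TPM after it, against 21.1 to 23.5 TPM and 21.4 to 26.1 TPM in WT. TPM keeps no read depth, so the depth behind each value is unknown and the spread between libraries is the measure of error. The 8 squamous markers examined were all expressed, and summed to between 7310 and 10102 TPM per library. Among them KRT17 was lower in KO without radiation (-0.29 on the log2 scale, adjusted p = 0.0141) and after it (-0.46, adjusted p = 4.92e-04), KRT14 was higher in unirradiated KO (0.24, adjusted p = 0.0217) and SFN was lower in irradiated KO than in irradiated WT (-0.21, adjusted p = 0.0378) and unirradiated KO (-0.28, adjusted p = 0.0105). EPCAM was higher after RT in WT (0.15, adjusted p = 0.0461) and KO (0.18, adjusted p = 0.0226). KRT5 libraries of KO lay above those of WT without radiation (0.52) and after it (0.54). These KRT5 differences did not pass (limma, adjusted p = 0.162 and 0.107). Of 7 endothelial markers, TIE1 was listed at 0 in every library and PECAM1, KDR and TEK stayed under 1 TPM. The endothelial sum nevertheless ranged from 12.7 to 16.9 TPM without radiation and from 20.1 to 25.1 TPM with it, most of it from CDH5 (8.51 to 12.7 TPM and 14.7 to 19.8 TPM, respectively). CDH5 was higher after RT by 0.61 on the log2 scale in WT (limma, adjusted p = 0.0285) and by 0.61 in KO (adjusted p = 0.0261). The fibroblast sum lay between 6.40 and 9.36 TPM and the leukocyte and platelet sum between 4.95 and 7.76 TPM, with 5 of 6 and 6 of 8 markers under 1 TPM throughout. CD14 was higher in unirradiated KO (3.64 to 4.35 TPM) than in unirradiated WT (2.62 to 3.00 TPM), by 0.40 (adjusted p = 0.0434). The mitochondrial share of TPM was 8.90% to 10.3% in unirradiated and 10.8% to 11.9% in irradiated KO, which did not overlap, and 9.30% to 10.9% and 10.2% to 11.2% in WT, which did. Genes at 1 TPM or more numbered 14860 to 15140 without radiation, and were more numerous in every irradiated library of the same cell type (15168 to 15292 in WT and 15079 to 15153 in KO). The part of these values in the differences below was not tested. In bulk RNA, fewer cells that express a gene and less of its RNA per cell cannot be told apart.

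The levels spanned a wide range. F3 stood highest, with a mean of 1146 TPM over the 12 libraries, above 99.4% of tested genes, and PLAU followed with 404 TPM, above 98.1%. F2RL1 (68.2 TPM) and TFPI2 (55.9 TPM) came next and overlapped, F2RL1 being the higher in 10 of 12 libraries. F2R (18.0 TPM) and PLAT (15.3 TPM) also overlapped in range, although F2R was the higher in each library. PLAT exceeded PLAUR (10.2 TPM) in 9 of 12 libraries, and THBD (2.01 TPM) and TFPI (0.0259 TPM) lay below all others in every library.

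**Figure D1:**
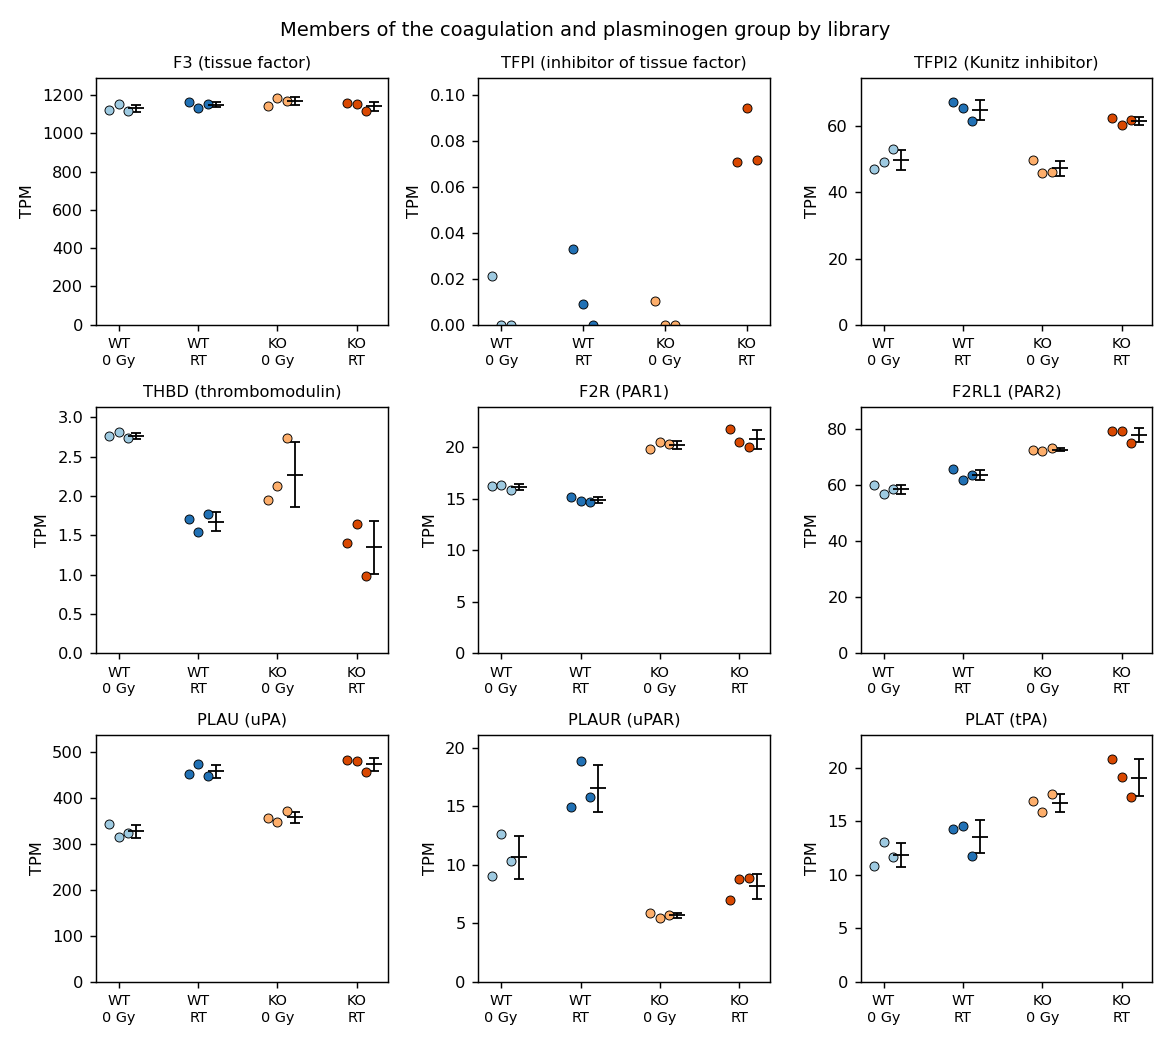
TPM of each gene in each library, by group (points, 3 libraries per group), with mean and SD as a bar beside the points except for TFPI, which was listed at 0 in 5 libraries. F3 lay between 1115 and 1186 TPM in every library, PLAUR was lower and F2R, F2RL1 and PLAT higher in STING KO, and TFPI2 and PLAU were higher after RT.

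In STING KO cells the receptors F2R, F2RL1 and PLAUR and the enzyme PLAT differed from WT, while no difference in F3, TFPI2, THBD or PLAU passed the test. Without radiation, 4 of the 8 tested genes passed the test (limma, adjusted p under 0.05): F2R, F2RL1 and PLAT were higher and PLAUR was lower in KO. The share of all 15973 tested genes that passed was 1.73%, with 0.463% higher and 1.26% lower. After RT the same 4 genes passed in the same directions, where 3.59% of all genes passed, 0.927% higher and 2.66% lower. The RT and 0Gy comparisons contrast different libraries, but both come from the same fit and share its estimate of the spread. Their calls are therefore not independent. Of all genes called without radiation 78.6% were also called in the same direction after it (37.9% of those called after it). The median log2 fold change of the 8 genes was 0.09 without radiation and 0.02 after it, beside medians over all genes of -0.02 and -0.02.

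With radiation, TFPI2 and PLAU rose in both cell types. In WT cells 3 of the 8 genes passed (PLAUR was the other), and in KO cells 2 did. Among all tested genes 3.74% passed in WT, 2.24% higher and 1.5% lower, and 3.69% passed in KO, 2% higher and 1.7% lower. The median log2 fold change of the 8 genes was 0.15 in WT and 0.14 in KO, and that of all genes was 0.02 in both. None of the 8 radiation effects differed between WT and KO by the interaction term (adjusted p from 0.760 to 1.00, and 0 of 8 under 0.05 without adjustment), whereas 0.0188% of all genes (3 genes) passed and 1056 were under 0.05 without adjustment.

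**Figure D2:**
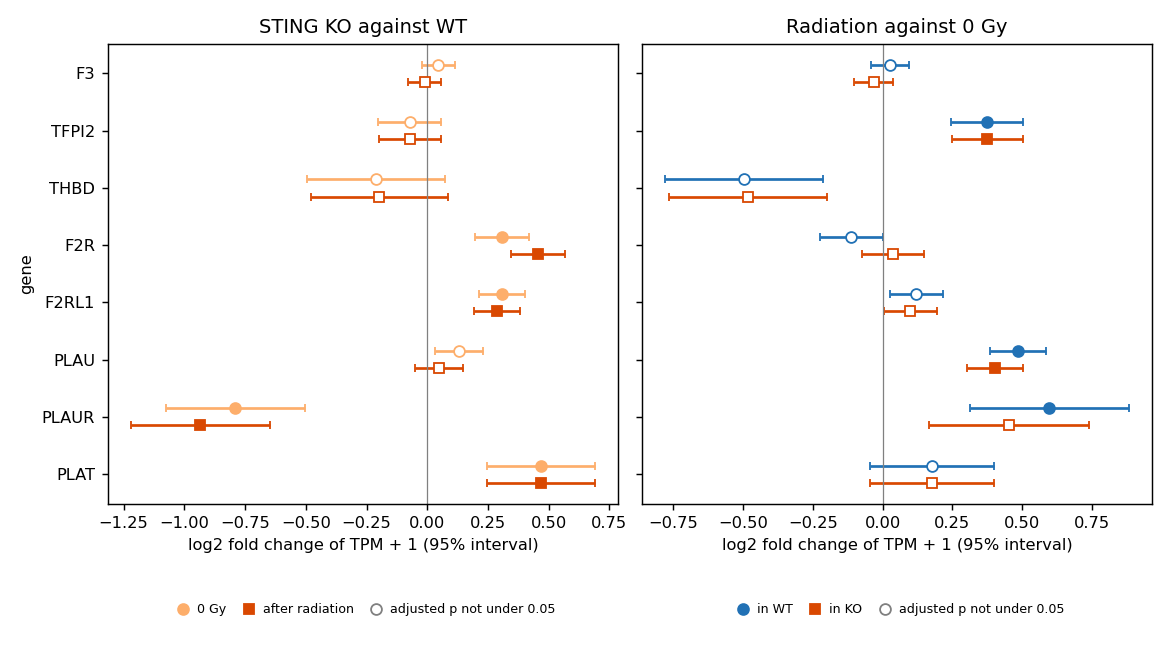
Log2 fold change of TPM + 1 with its 95% interval for the 8 tested genes, for STING KO against WT (left, circles at 0 Gy and squares after RT) and for RT against 0 Gy (right, circles in WT and squares in KO). Filled symbols have an adjusted p under 0.05 and open symbols do not. PLAUR is the only gene left of zero with filled symbols on the left, and TFPI2 and PLAU are filled in both cell types on the right.

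F3 (chromosome 1, 94529225 to 94541800, minus strand, GRCh38) was the most abundant and the steadiest of these genes. Its levels were 1122, 1149.8 and 1115 TPM in unirradiated WT, 1144, 1186 and 1168 TPM in unirradiated KO, 1161, 1133 and 1154 TPM in irradiated WT and 1156, 1151 and 1115 TPM in irradiated KO. All 4 groups overlapped. The KO difference on the log2 scale was 0.05 without radiation (95% interval -0.02 to 0.12, adjusted p = 0.565) and -0.01 after it (-0.08 to 0.06, adjusted p = 0.891), and the radiation difference was 0.03 in WT and -0.03 in KO (adjusted p = 0.732 and 0.661). The sign of 3 of these values turned under another scaling, and that of the KO difference after RT also without irradiated KO replicate 3 (0.0049), with no call in any case.

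The promoter of F3 is shown because its window shares a sequence feature with those of TFPI2 and PLAUR. Any part of this feature in the levels described here was not tested. RefSeq promoter windows (GRCh38.p14) of 300 bases, from 250 before the start to 50 after it, were at hand for 6 of the genes. There were 7 such windows. The AP-1 motif TGANTCA, which reads alike on both strands, was found in 3 of the 7, from F3, TFPI2 and PLAUR. It was in 7.71% of all 35116 windows. In F3 it occurred at 223 and 210 bases before the RefSeq start. The TFPI2 match, 87 bases before its start, and the PLAUR match, 186 bases before its start, lie in sequence that GENCODE release 29 annotates as exon, so that only the match and 11 bases on each side are given. Capitals mark the motif. The F3 stretch is chr1:94541801-94542009, the TFPI2 stretch chr7:93890823-93890851 and the PLAUR stretch chr19:43670338-43670366, each on the minus strand.
F3: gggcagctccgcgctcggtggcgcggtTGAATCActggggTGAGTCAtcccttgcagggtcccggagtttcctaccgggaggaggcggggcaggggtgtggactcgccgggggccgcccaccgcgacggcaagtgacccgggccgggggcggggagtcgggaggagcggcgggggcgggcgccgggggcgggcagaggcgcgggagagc
TFPI2: gtccccgtgcaTGAATCAgccacccctca
PLAUR: tcacaactccaTGAGTCAgggccgagcca

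The same windows were searched on both strands for the GC box GGGCGG and for GAAA, any 2 bases and GAAA again, a core of interferon response elements. The GC box was in 4 of the 7 windows, from F3, F2RL1, PLAU and TFPI2, and in 45% of all windows. The interferon response element core was in none of the 7 and in 3.57% of all windows. These are matches of letters only.

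TFPI (chromosome 2, 187464230 to 187565760, minus strand), the main inhibitor of tissue factor, was at the bottom of the range. Its levels were 0.0212, 0 and 0 TPM in unirradiated WT, 0.0104, 0 and 0 TPM in unirradiated KO, 0.0330, 0.00906 and 0 TPM in irradiated WT and 0.0709, 0.0945 and 0.0717 TPM in irradiated KO. The 3 irradiated KO libraries were above the other 9. With no filter on low values, the log2(TPM + 1) difference of RT in KO was 0.10 (adjusted p = 0.0485) and that of KO after RT was 0.09 (adjusted p = 0.0825), on levels far under the 1 TPM required for testing. An antisense gene, AC007319.1, overlaps TFPI on the other strand and reached 0.0885 TPM. Since 5 libraries were at 0, no ratio of F3 to TFPI was formed.

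TFPI2 (chromosome 7, 93885396 to 93890991, minus strand), a secreted Kunitz-type inhibitor of plasmin and other serine proteases, rose with radiation in both cell types. It was at 47.1, 49.3 and 53.0 TPM in unirradiated WT and at 67.4, 65.5 and 61.5 TPM after RT. In KO it was at 49.9, 46.0 and 46.0 TPM and at 62.5, 60.4 and 61.8 TPM after RT. Every irradiated library exceeded every unirradiated one. The log2 fold change was 0.37 in WT (SE 0.06, adjusted p = 0.00682) and 0.38 in KO (SE 0.06, adjusted p = 0.00660), or 1.30-fold in each, and the 2 differed by 0.00 (95% interval -0.18 to 0.18). The KO difference was -0.07 in both arms (adjusted p = 0.633 and 0.583). GNGT1 overlaps TFPI2 on the other strand and was listed at 1.32 to 3.52 TPM, and the strand setting of the quantification is not given in the sources used here.

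THBD (chromosome 20, 23045633 to 23049741, minus strand) was low throughout. Thrombomodulin RNA stood at 2.76, 2.81 and 2.73 TPM in unirradiated WT, 1.95, 2.13 and 2.74 TPM in unirradiated KO, 1.70, 1.54 and 1.78 TPM in irradiated WT and 1.40, 1.65 and 0.987 TPM in irradiated KO. The irradiated libraries all lay below the unirradiated ones of the same cell type, while WT and KO overlapped in both arms. Group means went from 2.77 to 1.67 TPM with radiation in WT and from 2.27 to 1.35 TPM in KO. At such low levels, differences of log2(TPM + 1) understate the fold change. On that scale the radiation difference was -0.50 in WT (SE 0.13, adjusted p = 0.0627) and -0.48 in KO (SE 0.13, adjusted p = 0.0684) and did not pass. It did pass with quantile normalization (adjusted p = 0.0372 and 0.0370), with no variance trend (adjusted p = 0.0458 and 0.0479) and, in WT, without irradiated KO replicate 3 (adjusted p = 0.0426).

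F2R (chromosome 5, 76716043 to 76735781, plus strand) and F2RL1 (chromosome 5, 76818933 to 76835315, plus strand) are 83.2 kb apart, with 0 annotated genes lying wholly between them. An antisense gene, AC025188.1, overlaps F2R on the other strand and reached 0.208 TPM. F2R, the thrombin receptor PAR1, was at 16.3, 16.4 and 15.8 TPM in unirradiated WT and 19.8, 20.5 and 20.3 TPM in unirradiated KO. After RT it was at 15.2, 14.8 and 14.7 TPM in WT and 21.8, 20.5 and 20.0 TPM in KO. Every KO library was above every WT library. The log2 fold change in KO was 0.31 without radiation (SE 0.05, adjusted p = 0.0110) and 0.45 after it (SE 0.05, adjusted p = 5.78e-04), or 1.24-fold and 1.37-fold. Irradiated WT libraries lay below the unirradiated ones (log2 difference -0.11, adjusted p = 0.274) and irradiated KO libraries overlapped theirs (0.04, adjusted p = 0.768). The difference between these effects was 0.15 (95% interval -0.01 to 0.31, adjusted p = 0.760). The 0Gy call was lost without unirradiated KO replicate 2 (0.30, adjusted p = 0.0552) or 3 (0.30, adjusted p = 0.0524).

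F2RL1, encoding PAR2, was at 60.1, 56.8 and 58.5 TPM in unirradiated WT and 72.5, 72.1 and 73.2 TPM in unirradiated KO. After RT it was at 65.6, 61.9 and 63.5 TPM in WT and 79.3, 79.2 and 75.2 TPM in KO. KO libraries were again all above WT libraries. The log2 fold change in KO was 0.31 without radiation (SE 0.04, adjusted p = 0.00422) and 0.29 after it (SE 0.04, adjusted p = 0.00456), or 1.24-fold and 1.22-fold, and it passed whichever library was left out. The irradiated libraries were above the unirradiated ones in each cell type, by 0.12 in WT and 0.10 in KO, without passing the test (adjusted p = 0.170 and 0.256). The part of the F2RL1 promoter window that is free of annotated exons is shown because this is the more abundant of the raised receptors. It is chr5:76818780-76818932, plus strand. The capitals mark the GC box in this part, 162 bases before the start and on the opposite strand. Other GC boxes of this window overlap annotated exons and are not shown.
F2RL1: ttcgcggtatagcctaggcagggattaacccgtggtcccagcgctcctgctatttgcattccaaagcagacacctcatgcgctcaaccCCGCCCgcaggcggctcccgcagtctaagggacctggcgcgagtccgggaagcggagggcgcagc

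PLAU (chromosome 10, 73909177 to 73917497, plus strand), encoding urokinase, rose with radiation in both cell types. It was at 343, 315 and 323 TPM in unirradiated WT and 452, 474 and 448 TPM after RT. In KO it was at 357, 347 and 371 TPM and at 484, 480 and 458 TPM after RT. No irradiated library overlapped the unirradiated ones. The log2 fold change was 0.48 in WT (SE 0.05, adjusted p = 3.80e-04) and 0.40 in KO (SE 0.05, adjusted p = 0.00121), or 1.40-fold and 1.32-fold, and both passed whichever library was left out. The effects differed by -0.08 (95% interval -0.22 to 0.06). Unirradiated KO libraries lay just above WT (0.13, adjusted p = 0.213), while irradiated ones overlapped (0.05, adjusted p = 0.635). C10orf55, on the other strand, was listed at 1.25 to 2.29 TPM.

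PLAUR (chromosome 19, 43646095 to 43670547, minus strand), encoding the urokinase receptor uPAR, had the largest KO differences of the 8 genes. It was at 9.0, 12.6 and 10.3 TPM in unirradiated WT and 5.90, 5.45 and 5.67 TPM in unirradiated KO. After RT it was at 14.97, 18.8 and 15.8 TPM in WT and 6.94, 8.75 and 8.84 TPM in KO. All irradiated KO libraries stayed below all unirradiated WT libraries. In KO the log2 level fell by 0.79 without radiation (SE 0.13, adjusted p = 0.0107) and by 0.93 after it (SE 0.13, adjusted p = 0.00271). Without unirradiated KO replicate 2 the former did not pass (-0.77, adjusted p = 0.0517). Radiation raised it by 0.60 in WT (1.51-fold, SE 0.13, adjusted p = 0.0335), a call lost without any 1 of 7 libraries (unirradiated WT 1 or 3, unirradiated KO 2 or 3, irradiated WT 1, 2 or 3, with log2 fold changes of 0.49 to 0.66 and adjusted p from 0.0510 to 0.114). The WT call was also lost with no filter on low values (adjusted p = 0.0644), and it held under 11 of 20 alternatives. In KO the radiation difference was 0.45 (adjusted p = 0.0873), and it differed from that in WT by -0.14 (95% interval -0.55 to 0.26).

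PLAT (chromosome 8, 42175233 to 42207724, minus strand), encoding tissue plasminogen activator, was at 10.8, 13.1 and 11.6 TPM in unirradiated WT and 16.9, 15.8 and 17.5 TPM in unirradiated KO. After RT it was at 14.3, 14.6 and 11.8 TPM in WT and 20.8, 19.1 and 17.3 TPM in KO. KO and WT libraries did not overlap in either arm. The log2 fold change in KO was 0.47 without radiation and 0.47 after it (SE 0.10 in each, adjusted p = 0.0476 and 0.0308), or 1.38-fold. These calls lie near the threshold. The first was lost without any 1 of the 6 unirradiated libraries or of irradiated WT or KO replicates 1 and 2 (0.41 to 0.54, adjusted p from 0.0506 to 0.154), and the second without any irradiated WT library or irradiated KO replicate 1 or 2 (0.38 to 0.52, adjusted p from 0.0530 to 0.0942). The radiation difference was 0.18 in both cell types, with overlapping libraries (adjusted p = 0.400 and 0.398).

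Counted by libraries that did not overlap between groups, 5 of the 8 genes separated KO from WT without radiation, 4 higher and 1 lower, where 20.6% of all genes did (8.51% higher and 12.1% lower). After RT 3 were higher and 1 lower, beside 24.1% of all genes (9.62% and 14.5%). For radiation in WT 4 were higher and 2 lower, beside 24.8% of all genes (14.7% and 10.1%), and in KO 4 were higher and 1 lower, beside 24.3% (13.7% and 10.6%).

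Ratios within a library do not depend on scaling between libraries. Each was tested by a two-sided exact permutation test, for which 3 against 3 libraries cannot give a p below 0.1, and over 8 such tests the smallest adjusted p was 0.2. The ratio of PLAUR to PLAU lay apart between the cell types. It was 0.0263 to 0.0399 in unirradiated WT and 0.0153 to 0.0165 in unirradiated KO, and 0.0331 to 0.0397 in irradiated WT and 0.0144 to 0.0193 in irradiated KO. On the log2 scale KO differed from WT by -1.02 and -1.06 (exact p = 0.1 each), whereas radiation left the groups overlapping (0.16 in WT and 0.12 in KO, exact p = 0.5 and 0.4). Without single libraries these last values ranged from 0.01 to 0.31 in WT (lowest without unirradiated WT replicate 1 and highest without replicate 2) and from 0.03 to 0.24 in KO (lowest without irradiated KO replicate 3 and highest without replicate 1). The ratio of F2RL1 to F2R was 3.47 to 3.69 in unirradiated WT and 3.52 to 3.66 in unirradiated KO, which overlapped (-0.01, exact p = 0.8). In irradiated WT it was 4.18 to 4.33, above unirradiated WT by 0.24 on the log2 scale and above irradiated KO (3.64 to 3.87), which differed from it by -0.19, both with no overlap (exact p = 0.1 each).

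**Figure D3:**
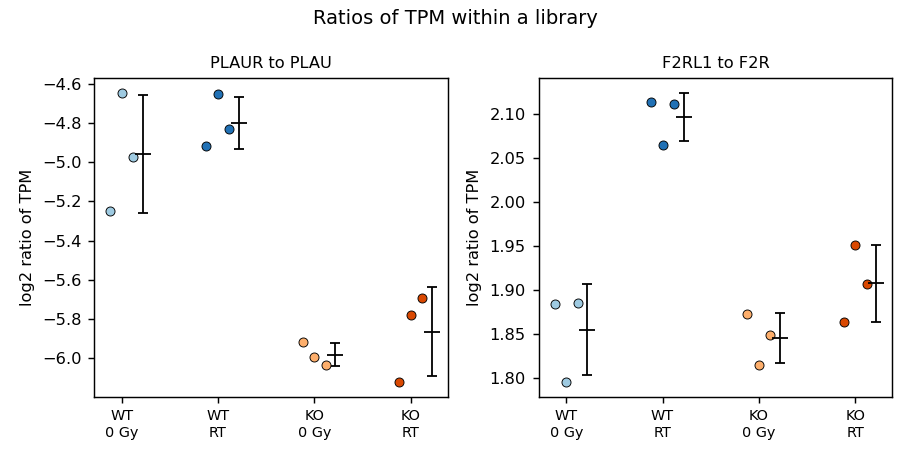
Log2 ratio of TPM within each library (points) for PLAUR to PLAU and F2RL1 to F2R, by group, with mean and SD (n = 3). The vertical axes do not start at 0. For PLAUR to PLAU, KO and WT libraries lie apart with and without RT, while for F2RL1 to F2R the irradiated WT libraries lie above the rest.

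Other genes of coagulation, the plasminogen system and PAR signalling were taken from 5 lists, of which 26 of 58 genes were tested. Only 3 of 16 procoagulant genes reached the level required for testing (F8, F12 and VWF), and none of them passed in any of the 5 comparisons. Over the 26 genes, 1 fell in KO without radiation, and 1 fell and 1 rose after it. Radiation raised 4 in KO and none passed in WT (limma, with 4 under 0.05 before adjustment). The median log2 fold change of the 26 was 0.04 for KO against WT in each arm, and 0.03 in WT and 0.04 in KO for radiation. The shares of all genes that passed stand above (1.73%, 3.59%, 3.74% and 3.69%). The count of 4 became 1 without any unirradiated KO library, without irradiated KO replicate 3 or with no filter, 2 with a replicate block, and 0 in the fit to 6 libraries, and the WT count became 1 with either scaling, a filter at a mean of 5 TPM or without unirradiated KO replicate 2. None passed the interaction, with 3 under 0.05 before adjustment.

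PROCR, the endothelial protein C receptor, which presents protein C to the thrombin and thrombomodulin complex, was at 11.3, 12.98 and 12.7 TPM in unirradiated WT and 9.05, 7.41 and 9.27 TPM in unirradiated KO. After RT it was at 16.4, 15.2 and 15.5 TPM in WT and 14.02, 12.7 and 14.1 TPM in KO. It fell in unirradiated KO by 0.48 (adjusted p = 0.0215) and rose with radiation in KO by 0.62 (adjusted p = 0.00510), whereas the values for irradiated KO against WT (-0.19) and for radiation in WT (0.33) did not pass (adjusted p = 0.296 and 0.0764). The interaction was 0.29 (adjusted p = 0.749). The first call was lost without unirradiated KO replicate 2 or unirradiated WT replicate 2 or 3 (adjusted p from 0.0644 to 0.0879). In the fits to 6 libraries neither call passed (adjusted p = 0.158 and 0.0555).

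The remaining called genes moved less or nearer to the threshold. ANXA2, a cell-surface plasminogen receptor, was listed at 1240 to 1569 TPM, and was higher in irradiated KO than in irradiated WT by 0.23 (adjusted p = 0.0115) and than in unirradiated KO by 0.19 (adjusted p = 0.0333). SERPINI1, neuroserpin, an inhibitor of tissue plasminogen activator, rose with radiation in KO by 0.62 (adjusted p = 0.0261). SPINT2, an inhibitor of membrane serine proteases, rose there by 0.30 (adjusted p = 0.0487). GNA13, a G protein subunit that couples to PAR1, was lower in irradiated KO by 0.20 on the log2 scale (-0.20, adjusted p = 0.0321). Each of these 5 calls was lost without at least 1 library. For ANXA2 this was irradiated WT replicate 1 in the first comparison (adjusted p = 0.0542) and any unirradiated KO or irradiated WT library or irradiated KO replicate 1 or 3 in the second (adjusted p from 0.0501 to 0.114). For SERPINI1 it was any KO library (0.0527 to 0.0860), for SPINT2 any library but unirradiated WT replicate 1 and irradiated KO replicate 1 (0.0594 to 0.139), and for GNA13 any irradiated library but WT replicate 3, or unirradiated KO replicate 2 or 3 (0.0522 to 0.119).

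**Figure D4:**
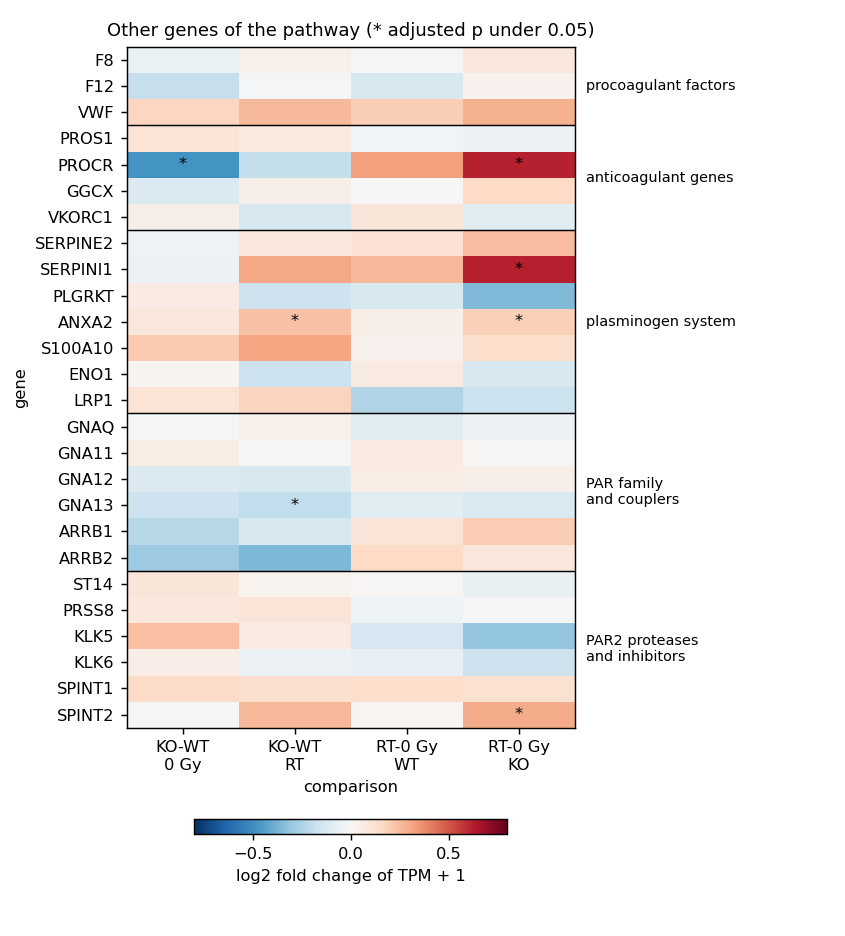
Log2 fold change of TPM + 1 for the 26 tested genes of the 5 lists (rows, grouped by list) in 4 comparisons (columns), with an asterisk where the adjusted p was under 0.05. The 4 asterisks for radiation in KO stand at PROCR, SERPINI1, ANXA2 and SPINT2, all higher after RT.

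For each gene called at least once, the 3 genes of at least 5 TPM with the nearest log2 profile over the 12 libraries were sought among 11144, by the root mean square of the centred log2 difference. This describes likeness only. Closest to TFPI2 (own SD 0.20) were SLC20A1, TIGAR and ICAM1, at 0.05 to 0.06. Closest to PLAU (own SD 0.23) were THBS1, KRT18 and AKAP5, at 0.07. For PLAUR (own SD 0.52) they were SLFN5, TMEM27 and CDKN1A, at 0.18 to 0.20. Group means of PLAUR in unirradiated WT and KO and irradiated WT and KO were 10.6, 5.67, 16.5 and 8.18 TPM. In the same order they were 15.4, 9.38, 22.4 and 13.5 TPM for SLFN5 and 6.22, 3.35, 10.4 and 4.78 TPM for TMEM27. For CDKN1A they were 26.4, 15.8, 45.9 and 24.5 TPM. Closest to F2R (own SD 0.20) were MAGI3, DCAF6 and LGR4, at 0.07 to 0.08, and closest to F2RL1 (own SD 0.16) were ZMPSTE24, RBBP8NL and FBN2, at 0.05 to 0.06. For PLAT (own SD 0.27) they were CGN, ZFP82 and AC027020.2, at 0.10 to 0.11.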

How the data were processed

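Polyadenylated RNA of 12 libraries was sequenced as 100 bp paired ends. The authors deposited TPM for 58288 genes, each library summing to 1000000, with no further scaling. The submitters' processing notes name HISAT2, StringTie, DESeq2 and hg38, and no versions. Groups came from the sample labels. The columns named NT2 were read as STING WT, after the study's non-targeting guides, and those named A63 as STING KO, and TMEM173 was then checked.

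From the deposited TPM, log2(TPM + 1) of the 15973 genes with at least 1 TPM in at least 3 libraries was fitted with 4 group means in limma 3.58.1 (R 4.3.3, eBayes with trend, 8 residual degrees of freedom). The Benjamini-Hochberg adjustment ran over all genes within each of 5 contrasts (threshold 0.05). A fold change on this scale understates that of low genes. The same code was tested on simulated data. Genes were named by a rule: the 9 genes, TMEM173, the listed pathway genes past the threshold and the 3 nearest profiles. The genes, lists and tests were chosen with earlier results of these data known. A gene of the lists is not reported here.

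Coordinates are from GENCODE release 29 (58022 identifiers matched, 55661 with version; TFPI2 by the identifier without version) and promoters from RefSeq. Alternatives were fits to the 6 libraries compared, leaving out single libraries, a replicate block, no variance trend, quantile normalization or median-of-ratios factors, a filter at a mean of 5 TPM or none, and a pseudocount of 0.1.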

Additional observations from a re-analysis of the deposited data

How the results depend on the processing

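The counts of the 8 genes that passed moved by over 1.5 times in these cases. For KO against WT without radiation, leaving out 1 library gave 1 to 4 (1 without unirradiated KO replicate 2 and 2 without replicate 3, where 174 and 185 of all genes passed), and fitting only the 6 libraries compared gave 0 where the main count was 4. With 6 libraries the count after RT was 2 and that for radiation in WT was 1. Calls over all genes fell in the same 3 fits to 106, 255 and 178, from 276, 573 and 597. In the fits to 6 libraries, adjusted p for F2RL1 was 0.0527 without radiation and 0.0588 after it, for F2R and PLAUR without radiation 0.0906 and 0.0645, for TFPI2 in WT 0.0640 and for PLAUR in WT 0.117. Those fits hold fewer residual degrees of freedom. PLAT was called in KO without radiation under 6 of 20 alternatives and after RT under 12 of 20. TFPI2 and PLAU in irradiated KO, PLAU in irradiated WT, and F2R and PLAUR in irradiated KO against WT were called under all 20. Quantile normalization and median-of-ratios factors (0.979 to 1.02 over libraries) changed no direction among the calls, but ended those of ANXA2 (irradiated KO against WT, quantile, 0.17, adjusted p = 0.0711; radiation in KO, median-of-ratios, adjusted p = 0.0749) and SPINT2 (radiation in KO, median-of-ratios, adjusted p = 0.0686). Leaving out 1 library gave 174 to 294, 310 to 540, 242 to 543 and 270 to 559 calls over all genes in the 4 comparisons, the lowest without unirradiated KO replicate 2, irradiated WT replicate 1, irradiated WT replicate 1 and unirradiated KO replicate 2.

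Signs turned only for values near 0 that never passed. For F3 these were -0.029 (KO without radiation, quantile), 0.0086 (KO after RT, median-of-ratios), 0.047 (radiation in KO, quantile) and 0.012 (interaction, quantile), and leaving out 1 library gave -0.022 to 0.0049 for KO after RT. For the interaction, THBD was -0.032 with a pseudocount of 0.1 and -0.0021 with quantile normalization, PLAT was -0.0034, -0.0060 and -0.0043 with a pseudocount of 0.1, median-of-ratios factors and quantile normalization, and TFPI2 was -0.0042 with median-of-ratios factors. Leaving out 1 library gave interaction values of -0.091 to 0.065 for PLAT, -0.043 to 0.040 for TFPI2, -0.079 to 0.13 for THBD and -0.042 to 0.0033 for F2RL1. The cause was not tested.

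Libraries of the same replicate number showed no strong shared deviation. Deviations from group means correlated at -0.06 to 0.06 over 18 same-numbered pairs, none over 0.1, and 4 of 12 libraries correlated best with their own number. These values cannot show whether same-numbered libraries were paired by culture or day. With the replicate number as a block, 3, 3, 3 and 2 of the 8 genes passed in the 4 comparisons and 0 the interaction, and PLAT in KO did not (adjusted p = 0.0844 and 0.0584). Nor did GNA13 in irradiated KO (0.0715) or ANXA2 and SPINT2 with radiation in KO (0.0712 each), which took the listed pathway genes called from 2 to 1 and from 4 to 2. The number of all genes called fell with the block from 276, 573, 597 and 590 to 211, 378, 315 and 359.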
